A study of Mus musculus with 4 samples.

Results

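The transcripts described here are those of the mitochondrial ribosomal protein genes of cultured lung ILC2s, the group 2 innate lymphoid cells that make type 2 cytokines at barrier tissues. Members were all genes of the deposited table whose symbols begin with Mrpl or Mrps and a digit. There were 83 of 17187 genes, 52 named for the large and 31 for the small subunit of the mitochondrial ribosome. Of these, 5 are named as pseudogenes, and the other 78 were the protein-coding members.

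The mitochondrial ribosome translates the few proteins encoded in mitochondrial DNA, all of them subunits of oxidative phosphorylation complexes. Its RNAs come from the mitochondrial genome, while its proteins are encoded in the nucleus, made in the cytosol and imported. Some of the proteins have homologs in the bacterial ribosome, and the others are found in the mitochondrial ribosome and not in the bacterial one.

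Sorted ILC2s from lungs of BALB/c mice were kept in culture for 18 hours with anti-CD226, an antibody to a costimulatory receptor of lymphocytes (anti-CD226 libraries, n = 2), or with an isotype control antibody (isotype libraries, n = 2). The stated antibody dose was 5 µg/mL, with no separate dose for the isotype control. Both groups came from WT mice, and the age of the mice is not given in the labels used here. Nothing in the labels tells whether replicates are separate mice, separate cultures or splits of a pool. Errors and p-values therefore cover the spread among the 4 libraries, and that spread may be technical. In bulk RNA, fewer cells of a type and less RNA per cell cannot be told apart.

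Values are the authors' normalised read counts, given for each library in the order of its replicate number. The estimated depth was 13521206 and 12473858 reads in anti-CD226 libraries and 12433421 and 17847078 reads in isotype libraries. Summed over 10 markers, the ILC2 signature was 138330 and 123388 in anti-CD226 libraries and 145743 and 147630 in isotype libraries, and no marker was at 0 in a library. Summed over the 11 macrophage and monocyte markers in the table, the level was 595 and 1928 in anti-CD226 libraries and 304 and 292 in isotype libraries. None of the 11 was at 0 in an anti-CD226 library, and 1 and 4 were at 0 in the isotype libraries. Cd226 stood at 1001 and 985 in anti-CD226 libraries and at 942 and 1042 in isotype libraries. Its transcript does not check the label, since the antibody acts on the protein.

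All 78 protein-coding members were transcribed in each library, with means over the 4 libraries between 248 and 2654 and a median of 697. Per kb of coding length, which leaves out untranslated ends, the median was 1246. Mrpl33, a very short protein of the large subunit core, was highest at 11859 per kb. Mrpl18, which in bacteria binds a small rRNA of the large subunit, followed at 4914 per kb. Mrps14, a core protein of the small subunit head, led its subunit at 4403 per kb. The lowest was Mrps31, a protein without a bacterial counterpart, at 215 per kb, and it rested on 263 and 184 estimated reads in anti-CD226 libraries and 224 and 351 in isotype libraries. The order was much the same in every library. Spearman's rho between libraries ran from 0.956 to 0.992 across the 78 genes, which share libraries and lengths, and 9 genes were in the top 10 of every library. The subunits were similar in level per gene: the median was 1223 per kb over 49 large subunit genes and 1273 per kb over 29 small subunit genes. Ranks of single genes depend on the length used. Per kb of the annotated transcript, untranslated ends included, Mrpl33 was again highest at 4838, but Mrpl42 (2792) stood above Mrpl18 (2177). On that scale Mrps21 (1954) stood above Mrps14 (564), and the lowest was Mrpl47 at 86.9.

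**Figure D1:**
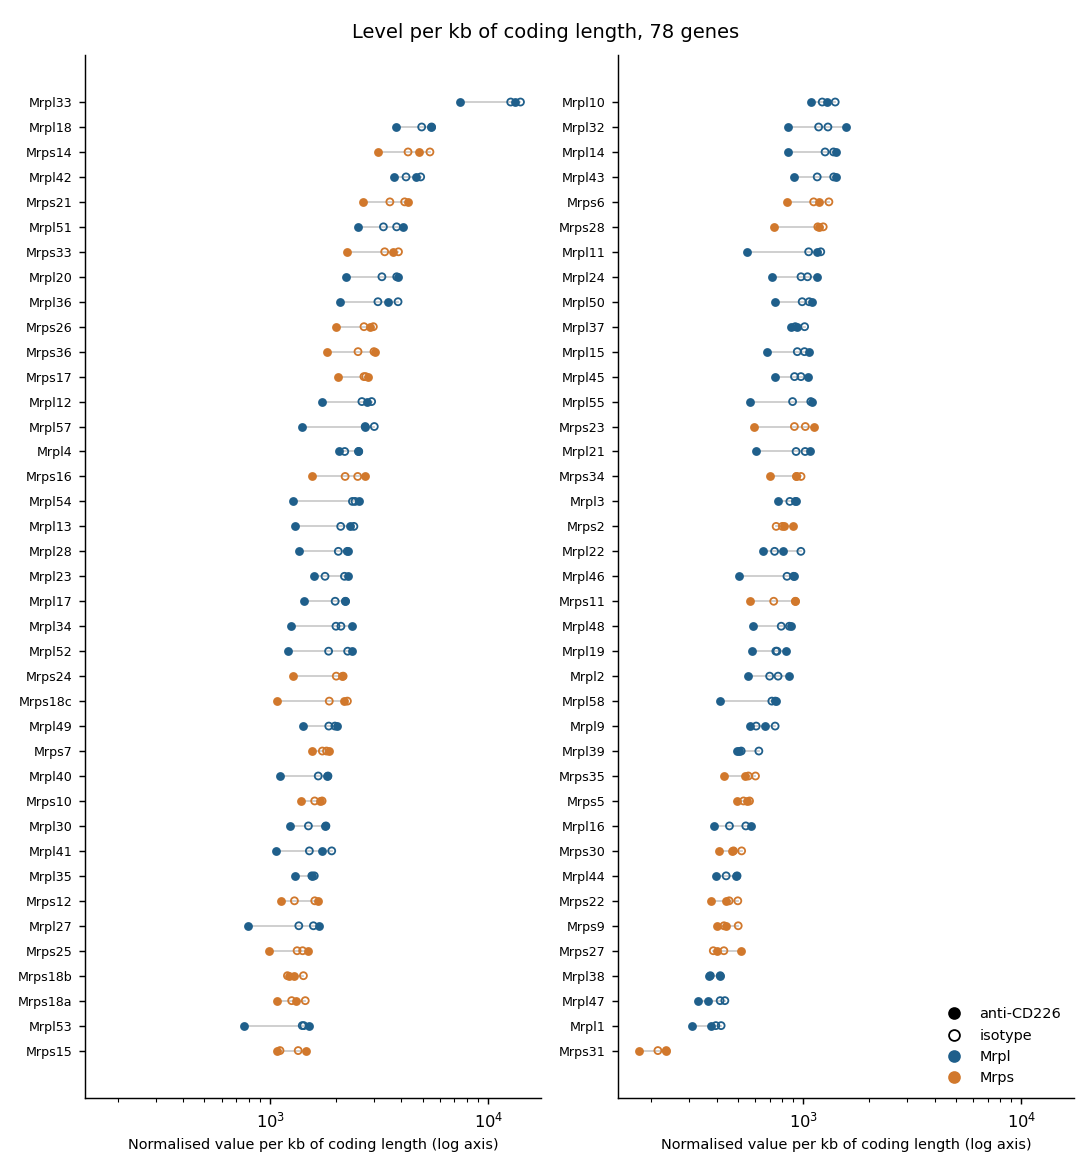
Level of each of the 78 protein-coding members, as the normalised value per kb of coding length on a log axis, ordered by mean. Filled points are the 2 anti-CD226 libraries, open points the 2 isotype libraries, blue the large and orange the small subunit, and grey lines span a gene's 4 libraries. Mrpl33 stands alone at the top, and for most genes the leftmost point is an anti-CD226 library.

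The members were scattered over 17 chromosomes, with 11 of the 78 on chromosome 11. Many had a close neighbour on the opposite strand. A protein-coding gene on the opposite strand began within 1000 bases of the start of 33 of the 78 members (42.3%), against 17.6% of 10888 protein-coding genes tested and 20.3% of 79 genes of the cytosolic ribosome. Mrpl46 and Mrps11, which encode proteins of different subunits, are each other's partner, with starts 412 bases apart. Mrpl49 is paired with Fau, which encodes a protein of the cytosolic ribosome, 59 bases away, and Mrpl36 with Ndufs6, a subunit of respiratory complex I, 29 bases away. Mrpl18 is paired with Tcp1, a subunit of a cytosolic chaperonin, 644 bases away. Distances were counted to either side, so a partner may start within the member. Exons of Mrpl46, Mrpl36 and Mrpl18 overlap exons of their partners.

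RefSeq promoter windows, 250 bases before to 50 bases after a start, were found for 69 of the members (75 windows, build GRCm38.p6). They were read on both strands for 3 motifs of factors known for genes of mitochondrial function and translation. The NRF1 motif GCGCANGCG was present in 21.3% of member windows, against 13.9% of 11626 windows of genes tested and 6.25% of all 32851 windows. The ETS motif CCGGAAGT was present in 16.0%, against 8.58% and 3.89% of the same windows. The YY1 motif AAGATGGCG was present in 10.7%, against 3.18% and 1.40%. In 68 windows of cytosolic ribosomal protein genes the shares were 11.8% for NRF1, 16.2% for ETS and 7.35% for YY1, so the ETS share of the members was about that of the cytosolic ribosome. The general promoter letters CCAATC (20.0% of member windows, 20.9% of windows of genes tested) and TATAAA (6.67% and 6.96%) were about as common in members as in other genes tested. Windows of genes tested are the nearer comparison, since the median G and C content was 58.7% in member windows, 60.7% in windows of genes tested and 52.7% in all windows. At least 1 of the NRF1, ETS and YY1 motifs was found for 34 of the 69 members. A match describes letters and is not evidence of binding.

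The 150 bases before the start are printed for 4 members, to show windows with and without a motif. They are the member with the highest mean that holds an NRF1 motif there, the same for an ETS motif, and the highest large and small subunit members with none of the 3 motifs in their window. Choice was among 15 members with a single RefSeq start and no annotated exon in those bases. Sequences are from RefSeq on GRCm38.p6, 5′ to 3′ on the gene's strand, and capitals mark NRF1 or ETS motifs on either strand. Mrpl45 lies on the plus strand (chr11:97315566-97315715), Mrps22 on the minus strand (chr9:98601680-98601829), Mrpl20 on the plus strand (chr4:155802728-155802877) and Mrps14 on the plus strand (chr1:160195065-160195214).
Mrpl45: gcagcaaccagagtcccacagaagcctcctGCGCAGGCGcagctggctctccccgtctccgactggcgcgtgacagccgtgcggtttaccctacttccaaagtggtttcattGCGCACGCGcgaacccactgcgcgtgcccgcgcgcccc
Mrps22: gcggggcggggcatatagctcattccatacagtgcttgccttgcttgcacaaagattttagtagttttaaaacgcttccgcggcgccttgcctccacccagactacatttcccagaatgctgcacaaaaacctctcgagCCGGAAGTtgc
Mrpl20: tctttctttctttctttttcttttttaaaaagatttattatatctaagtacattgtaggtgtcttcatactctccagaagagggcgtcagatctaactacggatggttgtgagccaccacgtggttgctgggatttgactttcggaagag
Mrps14: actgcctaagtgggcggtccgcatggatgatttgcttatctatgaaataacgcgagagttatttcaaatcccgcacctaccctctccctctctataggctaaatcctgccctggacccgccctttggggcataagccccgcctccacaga
Mrpl45 carries the NRF1 letters at 2 places and Mrps22 the ETS letters close to its start. Mrpl45 had 959 and 684 in anti-CD226 libraries and 895 and 836 in isotype libraries. Mrps22 had 478 and 408 against 492 and 539. Mrpl20, with none of the motifs, had 1721 and 996 in anti-CD226 libraries and 1455 and 1701 in isotype libraries. Anti-CD226 replicate 2 held the lowest value of each, whether or not a motif was found, and Mrps14 is described below with its subunit.

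Together the members made up 0.519% and 0.360% of the signal in anti-CD226 libraries and 0.474% and 0.529% in isotype libraries. The share averaged 0.439 ± 0.112% in anti-CD226 and 0.502 ± 0.0387% in isotype libraries (SD, n = 2 each), a difference smaller than the pooled SD of 0.0841. The large subunit summed to 47344 and 31531 in anti-CD226 libraries and to 42663 and 47602 in isotype libraries. The small subunit summed to 24905 and 17956 in anti-CD226 libraries and to 22520 and 25370 in isotype libraries. In both subunits anti-CD226 replicate 1 lay close to isotype replicate 2 and anti-CD226 replicate 2 was the lowest library.

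The balance of the subunits varied less between libraries than their amounts. The large to small ratio of the sums was 1.90 and 1.76 in anti-CD226 libraries and 1.89 and 1.88 in isotype libraries. It averaged 1.83 ± 0.102 in anti-CD226 and 1.89 ± 0.0128 in isotype libraries (SD, n = 2 each). On the log2 scale the anti-CD226 mean was lower by 0.05, with a difference of -0.05 and a pooled SD of 0.06. No p is given for these sums, because the members were chosen with earlier results of these data known. Sorting the proteins by the subunit they occupy in the human structure moves Mrps30 and Mrps18a to the large subunit and leaves out Mrps36, a component of the 2-oxoglutarate dehydrogenase complex. The log2 ratio was then 1.11 and 1.01 in anti-CD226 libraries and 1.11 and 1.10 in isotype libraries, again lowest in anti-CD226 replicate 2. Taken as the difference of the median log2 values of the subunits, which weights genes equally, the balance was 0.05 and -0.15 in anti-CD226 libraries and -0.12 and 0.06 in isotype libraries. By that measure isotype replicate 1 lay almost as low as anti-CD226 replicate 2, and the group difference was -0.02 with a pooled SD of 0.14.

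**Figure D2:**
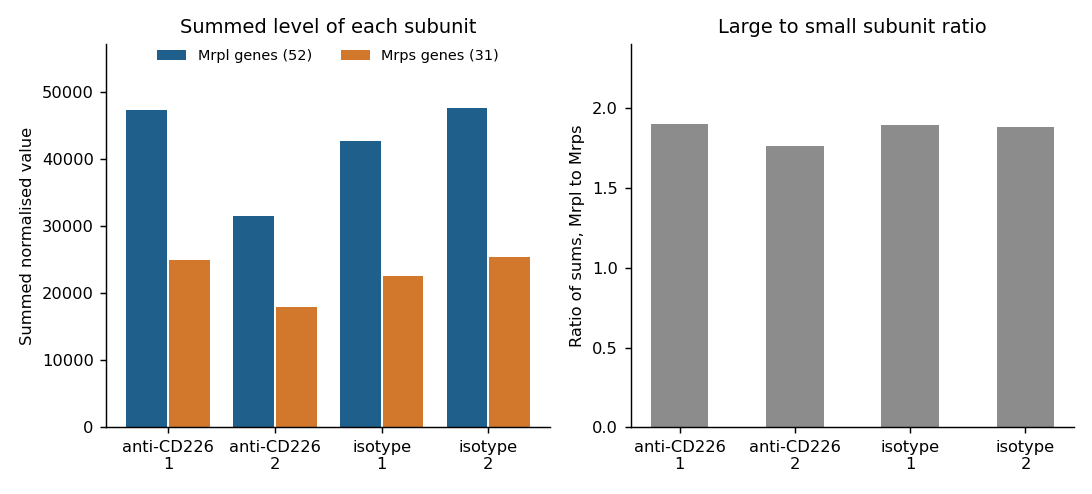
Left, summed normalised values of the 52 large (blue) and 31 small (orange) subunit genes in each library. Right, the ratio of the sums. Each bar is 1 library, with anti-CD226 libraries left of isotype libraries. Anti-CD226 replicate 2 has the lowest sum of both subunits and the lowest ratio, 1.76 against 1.88 to 1.90 in the other libraries.

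Of the 83 members, 80 had a mean of 10 or more and were tested, among them all 78 protein-coding ones. Their means were lower in anti-CD226 libraries in 77 and higher in 3, while 48.9% of all 13010 genes tested were lower. The median log2 fold change was -0.20 over the members and 0.01 over all genes tested. It was -0.23 over 51 large subunit and -0.18 over 29 small subunit genes. No large subunit gene was higher. None of these differences passed: limma called 0 members at an adjusted p below 0.05, as it called 0% of all genes tested. At an unadjusted p below 0.05 there were 0 members, against 2.37% of all genes, and the smallest adjusted p of a member was 0.982. Both anti-CD226 libraries lay below both isotype libraries in 10 members, 6 large and 4 small, which is 12.5% of the 80 against 13.0% of all genes. Both lay above in 1 member, against 13.8% of all genes. The count of members below was therefore near the background, and no result about the members.

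The 2 anti-CD226 libraries went different ways. Measured from the mean of the isotype libraries on the log2 scale, the median member stood at 0.06 in anti-CD226 replicate 1 and at -0.48 in anti-CD226 replicate 2. The isotype libraries stood at -0.07 and 0.07, mirror images by construction. Anti-CD226 replicate 1 was above the isotype mean in 57 of the 80 members and replicate 2 in 1. Anti-CD226 replicate 2 was the lowest of the 4 libraries in 76 of the 80 members, against 37.2% of all genes tested. The isotype libraries also differed from each other in 1 direction: isotype replicate 2 was the higher in 74 of the 80 members. The median over all genes tested was 0.01 in both anti-CD226 libraries, and -0.0017 and 0.0017 in the isotype libraries.

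**Figure D3:**
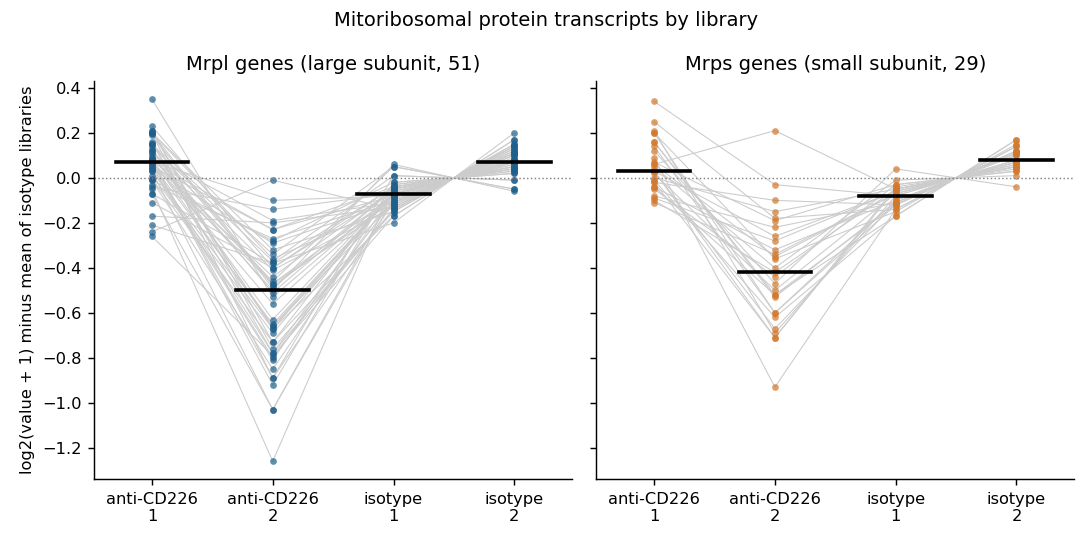
Deviation of each tested member from the mean of the isotype libraries, log2(value + 1), for 51 large (left) and 29 small (right) subunit genes. Each grey line is a gene and black bars are medians. Anti-CD226 replicate 2 lies below the other libraries in both panels, with medians of -0.50 and -0.42, while anti-CD226 replicate 1 lies at 0.07 and 0.03.

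Without anti-CD226 replicate 2 the median member was higher by 0.06, with 57 members higher, 23 lower and 0 called, where 0.407% of all genes were called. With replicate 2 as the only anti-CD226 library, 79 members were lower with a median of -0.48, and limma called 31 of the 80 lower at an adjusted p below 0.05. Of all genes tested, 6.79% were called lower in that fit. The 31 comprised 21 large and 10 small subunit genes, 41.2% and 34.5% of those tested, and 68 of 79 genes of the cytosolic ribosome were called lower in the same fit. The lone library is assumed there to vary like the isotype libraries, so the counts describe that library and not the antibody. The summed macrophage markers were also highest in that library, at 1928. Summed over 5 genes, mast cell and basophil markers stood at 1007 and 1461 in anti-CD226 libraries and at 1094 and 934 in isotype libraries, and none was at 0. The ILC2 markers had their lowest sum there, 123388. The part of these markers in the result was not tested.

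Among the large subunit genes the smallest p belonged to Mrpl57, a small protein without a bacterial homolog. Mrpl57 (chromosome 14, 57826234 to 57829296, plus strand, GRCm38) had 835 and 430 in anti-CD226 libraries and 835 and 919 in isotype libraries. On the log2 scale its difference was -0.55 (standard error 0.30; limma, adjusted p = 0.982). Only replicate 2 stood clearly below the isotype values, since anti-CD226 replicate 1 and isotype replicate 1 had nearly the same value. Mrpl33 had 2589 and 1448 in anti-CD226 libraries and 2472 and 2741 in isotype libraries (log2 fold change -0.43, standard error 0.27). Mrpl11, part of the region that activates translational GTPases, had 662 and 319 against 609 and 692. In both genes anti-CD226 replicate 1 lay among the isotype libraries and replicate 2 far below them. Mrpl47 differed, with 277 and 248 in anti-CD226 libraries and 314 and 330 in isotype libraries, so that both anti-CD226 libraries were below (log2 fold change -0.30, standard error 0.19). The other large subunit genes with both anti-CD226 libraries below were Mrpl1, Mrpl39 and the pseudogenes Mrpl23-ps1 and Mrpl48-ps, 3 of which were picked out after their values were seen.

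The most abundant large subunit genes showed the same order of anti-CD226 libraries. Mrpl18 (chromosome 17, 12911349 to 12916345, minus strand) had 2937 and 2032 in anti-CD226 libraries and 2675 and 2970 in isotype libraries (log2 fold change -0.21, standard error 0.21). Mrpl4, which lines the exit tunnel, had 2236 and 1833 against 1939 and 2248. Here anti-CD226 replicate 2 was again the lowest library, though by less for Mrpl4. The proteins of the stalk, which recruits translation factors, are Mrpl10 and Mrpl12. Mrpl10 had 1004 and 852 in anti-CD226 libraries and 959 and 1100 in isotype libraries. Mrpl12, which has also been reported to bind the mitochondrial RNA polymerase, had 1685 and 1038 against 1589 and 1761. The shorter coding sequence, that of Mrpl12, had the larger difference of the pair, with log2 fold changes of -0.34 for Mrpl12 and -0.15 for Mrpl10.

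Mrpl44, whose fold resembles that of a ribonuclease, had 490 and 398 in anti-CD226 libraries and 442 and 496 in isotype libraries. Mrpl45, which anchors the ribosome at the inner membrane, was given above and had a log2 fold change of -0.09. Mrpl3, a core protein near the catalytic centre, had 967 and 796 against 905 and 960. These 3 genes had log2 fold changes of -0.08, -0.09 and -0.09. Mrpl41, a protein without a bacterial homolog, had 704 and 432 in anti-CD226 libraries and 613 and 776 in isotype libraries. Mrpl58, a peptidyl-tRNA hydrolase that frees stalled ribosomes and is also built into the large subunit, had 464 and 257 against 443 and 460. Both lay well below the isotype libraries in replicate 2 only, with log2 fold changes of -0.32 for Mrpl41 and -0.39 for Mrpl58.

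In the small subunit the smallest p belonged to Mrps28, related to a bacterial protein that helps bind mRNA. Mrps28 (chromosome 3, 8802146 to 8923918, minus strand) had 661 and 408 in anti-CD226 libraries and 650 and 688 in isotype libraries, so that its log2 fold change was -0.36 (standard error 0.25). Mrps24, a homolog of a protein at the mRNA entry, had 1065 and 636 against 1007 and 1083. Mrps14 had 1841 and 1201 in anti-CD226 libraries and 1647 and 2075 in isotype libraries. All 3 were lowest in anti-CD226 replicate 2 and within the isotype range in replicate 1. Mrps35, in contrast, had 521 and 417 against 537 and 579, below the isotype libraries in both. The same held for Mrps22, and for Mrps34 with 603 and 460 against 609 and 638, 2 proteins in which human mutations cause disease of the mitochondria.

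The 3 Mrps18 paralogs occupy different places, Mrps18a in the large subunit and the other two in the small one. Mrps18c had 936 and 463 in anti-CD226 libraries and 801 and 970 in isotype libraries. Mrps18a had 769 and 634 against 738 and 852, and Mrps18b had 982 and 926 against 915 and 1083. Their log2 fold changes were -0.42 for Mrps18c, -0.18 for Mrps18a and -0.06 for Mrps18b, in the order of their coding lengths of 429, 588 and 762 bases. None passed limma's test (adjusted p = 0.982, 0.982 and 0.983). Mrps12, at the decoding centre, had 691 and 467 against 539 and 668. Its coding length of 417 bases was shorter than those of the paralogs, yet its log2 fold change was only -0.08. Mrps26 and Mrps7, 2 of the most abundant small subunit genes, had 1725 and 1197 against 1616 and 1784, and 1355 and 1131 against 1260 and 1317. Mrps30, named for the small subunit but built into the large one, had 621 and 544 against 634 and 691, below the isotype libraries in both. Mrps36, which is not a ribosomal protein, had 927 and 555 against 774 and 916, a pattern shared with the genes that are.

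Mrps2 was the one member with both anti-CD226 libraries above both isotype libraries. Mrps2 (chromosome 2, 28468066 to 28471178, plus strand), a core protein of the small subunit, had 708 and 783 in anti-CD226 libraries and 655 and 700 in isotype libraries. Its mean was 745 ± 52.4 in anti-CD226 and 678 ± 31.6 in isotype libraries (SD, n = 2 each), which differ by 0.14 on the log2 scale (standard error 0.17; limma, adjusted p = 0.982). It was also the only member above the isotype mean in anti-CD226 replicate 2. The other members with a higher mean, chosen after their values were seen, were Mrps27 with 646 and 498 against 481 and 538, and Mrps15 with 1127 and 832 against 859 and 1041. Their means rest on anti-CD226 replicate 1, and the sign of Mrps15 turned under upper quartile scaling.

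Members named as pseudogenes had few reads, and reads of a pseudogene cannot be told from those of its parent. Mrpl23-ps1 had 59.5 and 40.9 in anti-CD226 libraries and 63.8 and 80.5 in isotype libraries, and Mrpl48-ps had 19.4 and 7.80 against 19.7 and 20.5. The 3 that did not reach a mean of 10 were Mrpl27-ps with 4.14 and 0 against 4.88 and 0.825, Mrps36-ps1 with 2.21 and 0 against 3.65 and 2.86, and Mrps36-ps2 with 2.32 and 0 against 0 and 3.86. A value of 0 allows up to 3.31 in anti-CD226 replicate 2, the worth of 3 reads, so these 3 were at or near the floor in every library. Exons of 28 members overlap a gene on the other strand and those of 8 a gene on the same strand, and how strand was treated is not given in the sources used here. Mrpl46 and Mrps11 are such a pair. Mrpl46 had 769 and 431 in anti-CD226 libraries and 714 and 766 in isotype libraries, and Mrps11 had 524 and 326 against 419 and 527.

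Among the members, how far anti-CD226 replicate 2 stood below the isotype libraries went with the length of the coding sequence. Across the 78 protein-coding members Pearson's r between the log2 deviation of that library and log2 coding length was 0.64 and Spearman's rho 0.66. Genes share the library and are not replicates. Over 10882 genes tested with a coding length, r was 0.47 and rho 0.56. In anti-CD226 replicate 1 the members' r was -0.23, and in the isotype libraries it was 0.20 and -0.20, mirror values by construction. Over all genes it was -0.06 in anti-CD226 replicate 1 and 0.34 and -0.34 in the isotype libraries, so the libraries of 1 group also differed in this relation. The 26 members with the shortest coding sequences, 195 to 477 bases, had a median deviation of -0.65 in anti-CD226 replicate 2. The middle 26 had -0.50 and the 26 longest, 756 to 1326 bases, had -0.25. Of the 31 members called lower with that library alone, 18 were among the shortest, 11 in the middle and 2 among the longest. The 5235 genes tested with coding sequences of 195 to 1326 bases had a median of -0.18, and 12.1% were called lower.

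**Figure D4:**
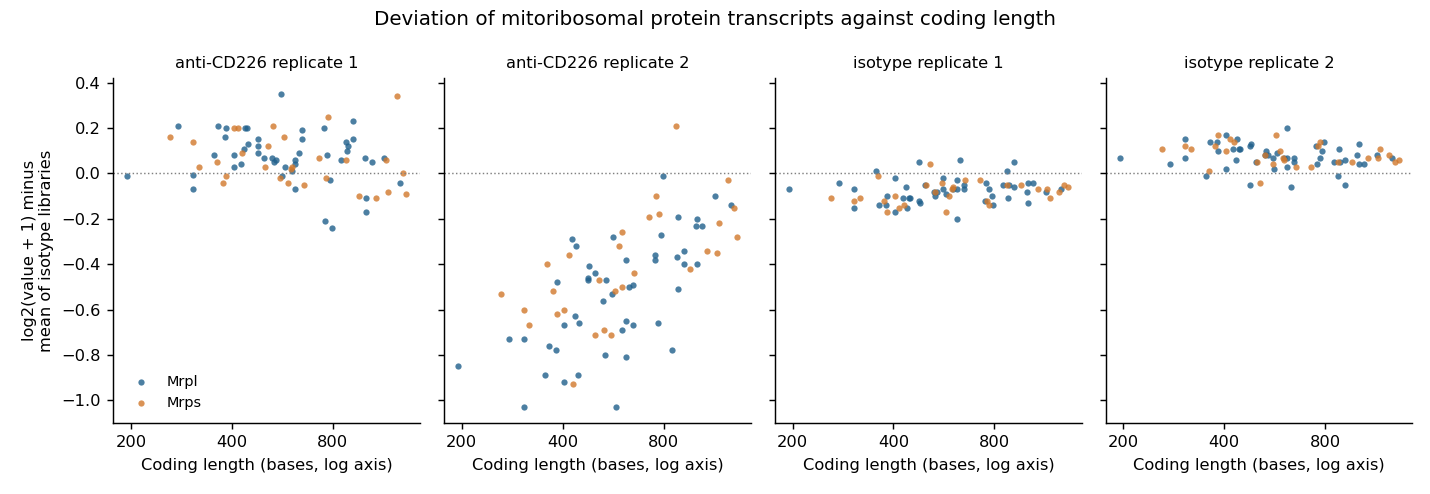
Deviation of each protein-coding member from the isotype mean, log2(value + 1), against coding length in bases on a log axis, 1 panel per library. Blue points are large and orange points small subunit genes. In anti-CD226 replicate 2 the shortest genes lie lowest (r = 0.64), and in anti-CD226 replicate 1 the points lie between -0.24 and 0.35.

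With the annotated transcript, which includes untranslated ends, r among the members was 0.26 and rho 0.33 in anti-CD226 replicate 2, while r was 0.46 and -0.46 in the isotype libraries. Over 12737 genes with a transcript length, r in anti-CD226 replicate 2 was 0.46 and rho 0.53, close to the values for coding length. With the number of exons the members' r in anti-CD226 replicate 2 was 0.52, with the G and C content of the transcript -0.01, and with the mean level -0.05. Large and small subunit genes had similar coding lengths, with medians of 576 and 588 bases. With each library's trend with coding length removed over all genes, 62 of the 78 members were lower and 16 higher, the median log2 fold change was -0.09 and 0 members were called. The cause of this relation was not tested.

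Genes that start beside a member stood nearer the isotype mean in that library. The 33 members with a partner had a median deviation of -0.47 in anti-CD226 replicate 2, and the 45 without had -0.49. The 28 partners that were tested and are not members had a median of -0.06. The median coding length was 573 bases for the members with a partner and 1689 bases for these partners. Fau, the short partner of Mrpl49, had 2859 and 1513 in anti-CD226 libraries and 2363 and 2995 in isotype libraries. Ncapd2, a condensin subunit that starts 100 bases from Mrpl51, had 3150 and 4206 against 3473 and 2750. Mrpl51 itself had 1559 and 975 against 1270 and 1460, so that this pair went opposite ways in anti-CD226 replicate 2. The pairs shown here were not picked by a rule. In that library some other partners, such as Ndufs6, were low with their member and others were not. Of the 28 partners, 16 were lower in anti-CD226 libraries, with a median log2 fold change of -0.07.

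Proteins with a bacterial homolog and those without had similar medians. The median log2 fold change was -0.20 over 46 members with a homolog, 44 of them lower, and -0.19 over 31 without, 30 of them lower. In anti-CD226 replicate 2 the medians were -0.50 and -0.46. Of the 5 proteins of the mitochondrial ribosome with other symbols, 4 were lower and 1 higher, with a median of -0.11. Chchd1 had 920 and 432 in anti-CD226 libraries and 723 and 858 in isotype libraries, and Gadd45gip1 had 479 and 273 against 435 and 475. The GTP-binding Dap3 had 1069 and 824 against 1003 and 1007, Aurkaip1 had 1359 and 1101 against 1262 and 1377, and Ptcd3 had 1504 and 1319 against 1408 and 1234. Ptcd3 was the one of the 5 whose mean was higher in anti-CD226 libraries.

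The cytosolic ribosome showed the same order of anti-CD226 libraries, with larger deviations. All 79 of its protein genes had lower means in anti-CD226 libraries (median -0.33 on the log2 scale), and limma called 0 of them. Their median deviation was 0.10 and -0.74 in anti-CD226 libraries and -0.16 and 0.16 in isotype libraries. The members minus the cytosolic genes stood at -0.04 and 0.27 in anti-CD226 libraries and at 0.09 and -0.09 in isotype libraries, a difference of 0.11 with a pooled SD of 0.18. That difference was within the spread of the libraries. As a share of the signal the cytosolic genes made up 2.92% and 1.65% in anti-CD226 libraries and 2.50% and 3.08% in isotype libraries.

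Genes that serve the mitochondrial ribosome without being part of it had medians nearer 0, but their transcripts were longer. Median annotated length was 1284 bases for members, 2606 for translation factors and 1821 for genes of ribosome assembly and rRNA modification. After correction for transcript length the medians lay closer together, at -0.12 for members, -0.07 for translation factors and -0.04 for assembly genes. Whether length accounts for the difference was not tested. Of 16 translation factors tested, 10 were lower and 6 higher (median -0.10 on the log2 scale). The release factor gene Mtrf1 had 71.0 and 52.9 in anti-CD226 libraries and 88.4 and 92.7 in isotype libraries. Lrpprc, which stabilises mitochondrial mRNAs, had 1197 and 1486 against 1241 and 948. Of 25 genes of ribosome assembly and rRNA modification, 19 were lower and 6 higher, with a median of -0.07. The helicase gene Ddx28 had 253 and 212 against 287 and 312, and the methyltransferase gene Mettl15 had 121 and 161 against 89.5 and 108. These 2 stood apart between groups in opposite directions, and neither passed limma's test (adjusted p = 0.982 for each).

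Of 20 mitochondrial aminoacyl-tRNA synthetases 10 were lower and 10 higher, with a median of 0.01. Lars2, which charges the leucine tRNA, was listed at 22356 and 6607 in anti-CD226 libraries and at 19577 and 30837 in isotype libraries, while the median gene of the list had a mean of 359. Whether all reads listed for Lars2 come from its mRNA was not tested. Mars2, which charges the methionine tRNA, had 271 and 244 in anti-CD226 libraries against 200 and 235. Of 14 genes of mitochondrial transcription and RNA processing, 7 were lower and 7 higher. Tefm, an elongation factor, had 136 and 90.4 against 134 and 151, and Hsd17b10, a subunit of mitochondrial RNase P, had 1055 and 697 against 990 and 1059. Of 8 regulators of mitochondrial biogenesis, 2 were lower and 6 higher. The nuclear receptor gene Esrra had 283 and 197 against 335 and 336, and the coactivator gene Pprc1 had 1399 and 2430 against 1702 and 1256. Pprc1 was thus highest in the library where the ribosomal proteins were lowest. That library, anti-CD226 replicate 2, was also the highest for 37.0% of all genes tested.

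**Figure D5:**
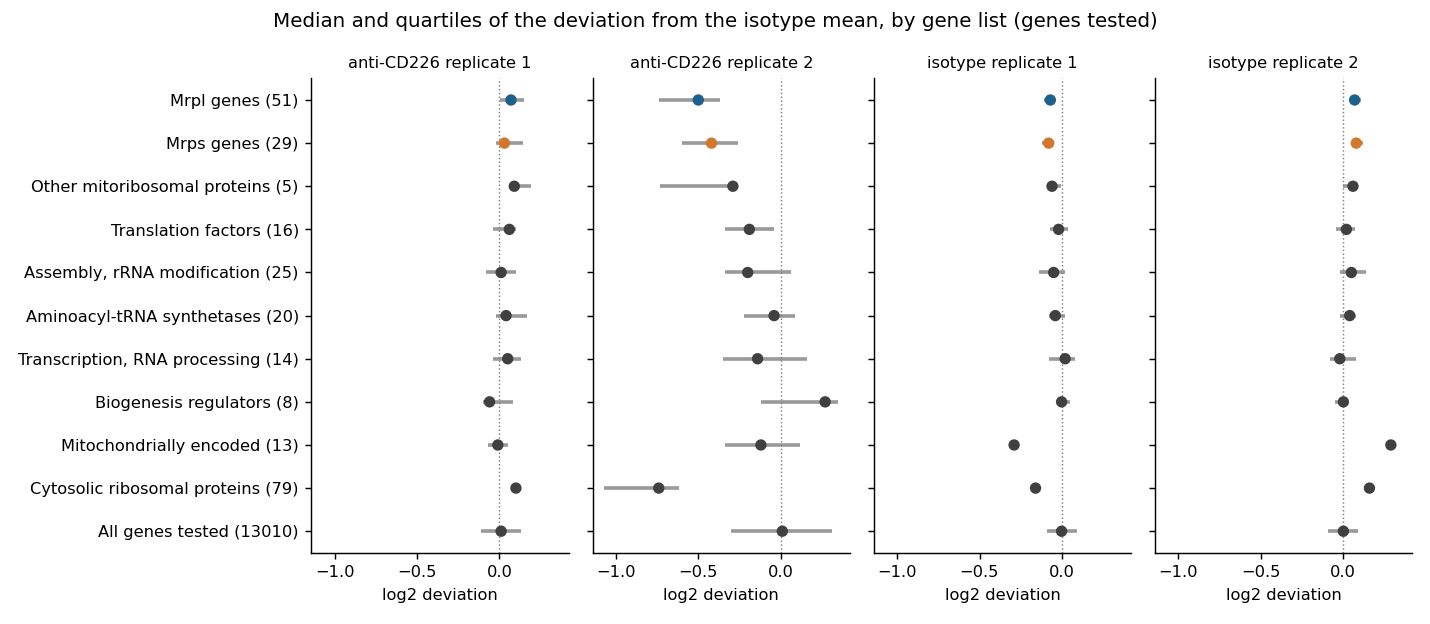
Median deviation from the isotype mean, log2(value + 1), for each gene list in each library, with grey bars from the lower to the upper quartile and the number of genes tested in brackets. In anti-CD226 replicate 2 the cytosolic ribosomal proteins (-0.74) and the Mrpl (-0.50) and Mrps (-0.42) genes lie farthest to the left, while all genes tested lie at 0.01.

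By their median, the mitochondrially encoded mRNAs showed another order of the libraries. Of the 13 mitochondrially encoded mRNAs, 7 were lower and 6 higher, with a median of -0.07. Their median deviation was -0.01 and -0.12 in anti-CD226 libraries and -0.29 and 0.29 in isotype libraries, so the isotype libraries differed from each other by more than either anti-CD226 library did from their mean. Mt-Nd3, a complex I subunit, had 422 and 212 in anti-CD226 libraries and 474 and 683 in isotype libraries (mt-Nd3, log2 fold change -0.93, standard error 0.33; limma, adjusted p = 0.982). Mt-Co1, a subunit of cytochrome oxidase, had 11509 and 8550 against 11431 and 17491. The rRNA of the small subunit, mt-Rnr1, stood at 3749 and 1489 in anti-CD226 libraries and at 2870 and 4932 in isotype libraries. The rRNA of the large subunit, mt-Rnr2, stood at 14061 and 8843 against 11787 and 27215. Both rRNAs were lowest in anti-CD226 replicate 2 and highest in isotype replicate 2, the same library order as in the members' share of the signal. Their ratio, large to small, was 3.75 and 5.94 in anti-CD226 libraries and 4.11 and 5.52 in isotype libraries. The 4 libraries ranked by this ratio stood in the reverse of their order by the large to small ratio of the protein gene sums. That order rests on close values, since all libraries but anti-CD226 replicate 2 lay between 1.88 and 1.90. By the difference of median log2 values, isotype replicate 2 stood highest at 0.06 and the orders were not reversed. This is a description with no test.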

How the data were processed

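Per the labels' protocols, RNA of cultured lung ILC2s was made into cDNA with a SMARTer kit for very small inputs; the 10 pg stated may be a slip in the unit. Per the submitters' processing notes, the tools were STAR 2.7.8, Partek 10.0 and an unnumbered DESeq2, on mm10. How reads were counted, on which annotation and with which strand setting is not given in the sources used here. The table the authors deposited holds normalised signal values, 1 for each gene in each library. A treatment column in it names the controls PBS, where the sample labels, followed here, have isotype control. The series' design text places the treatment in the mice, and the labels place it in culture. Of 312 columns checked singly none contradicted the unit, and the remaining columns were taken to hold the same quantity. Between 70.2% and 74.4% of a library's values between 0.5 and 1000 steps were whole multiples of 1 step (tolerance 0.02), so no count model was run. Depth is the total divided by that step, and floors of 3 reads cover counting error only. Reads of an amplified library are not independent molecules.

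Genes with a mean of 10 or more (13010) were tested by limma 3.58.1 (R 4.3.3; trended variance prior) on log2(value + 1), two-sided, Benjamini-Hochberg adjusted over all of them. Fold changes on this scale understate the change of low genes. The limma step was tested on simulated data in which genes varied independently and the planted changes were larger than those of the members. No shift shared by many genes of a library was simulated, so that case was not covered. The members, gene lists and tests were chosen with earlier results of these data known. Named genes are, in each subunit, the 3 with the highest mean and the 5 of smallest p. To these were added 17 members fixed by role, all members under the filter and 2 genes per related list. Of the mitochondrial ribosomal proteins with other symbols, all were named. Other genes given with values, such as partners of members and those at the ends of a ranking, were outside this rule. GENCODE M21 (GRCm38, which is mm10) gave the positions of 82 members and, from the principal transcript, their lengths. Alternatives covered the pseudocount, the filter, 3 scalings, the variance trend, a replicate block, length trends, subunits by structure and leaving out each library. The samples' numbers gave no evidence of pairing.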

Additional observations from a re-analysis of the deposited data

How the results depend on the processing

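With 2 libraries per group, 1 library decided the direction of the members. The count called by limma was 0 under all settings that kept 4 libraries and ranged from 0 to 31 when 1 library was left out, reaching 31 without anti-CD226 replicate 1. The median log2 fold change ranged from -0.48 to 0.06 over all members, from -0.50 to 0.07 over the large subunit and from -0.42 to 0.03 over the small one, each turning positive without anti-CD226 replicate 2. For 22 named genes the sign turned when 1 library was left out, with log2 fold changes of -0.47 to 0.06 for Mrpl18, -0.19 to 0.10 for Mrpl4, -1.03 to 0.03 for Mrpl11, -0.50 to 0.02 for Mrps26, -0.19 to 0.07 for Mrps7, -0.71 to 0.03 for Mrps24, -0.93 to 0.09 for Mrps18c, -0.23 to 0.05 for Mrpl3, -0.69 to 0.01 for Mrpl12, -0.67 to 0.03 for Mrpl41, -0.23 to 0.07 for Mrpl44, -0.34 to 0.15 for Mrpl45, -0.81 to 0.04 for Mrpl58, -0.36 to 0.20 for Mrps12, -0.18 to 0.06 for Mrps18b, -0.60 to 0.14 for Mrps36, -0.29 to 0.09 for Dap3, -0.86 to 0.22 for Chchd1, -0.26 to 0.04 for Aurkaip1, -0.73 to 0.07 for Gadd45gip1, -0.55 to 0.04 for Hsd17b10 and -0.06 to 0.73 for Pprc1. The turn came without anti-CD226 replicate 2 in all but Mrps18b, which turned without isotype replicate 2, as did Mrpl4 and Mrps12. With the transcript length trend removed the members' median was -0.12, with 64 lower and 16 higher, and Mrpl4 (0.08), Mrpl44 (0.03), Mrps12 (0.10), Mrps18b (0.09) and Aurkaip1 (0.04) turned positive. The removal of coding length and crossed pairs were added after seeing the data.

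The other scalings, pseudocounts and filters kept the members' median between -0.24 and -0.20. The labels do not tell whether libraries with the same replicate number are pairs, and 2 libraries per group cannot settle it. With the replicate block 0 members and 20 genes were called. The deviations of same-numbered libraries correlated at -0.24 over all genes tested and at 0.02 over the members tested. With crossed replicate pairs 0 members and 61 genes were called. In that fit 13 of 80 members and 1267 of 13010 genes had an unadjusted limma p below 0.05, against 0 and 308 in the main fit. Depth limits the pseudogenes, whose values rest on few reads.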
